A study of Mus musculus with 6 samples.

Results

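Genes that make, trim and degrade ribosomal RNA precursors were followed in mouse embryonic stem cells. They were chosen by name: every probe set of the array whose single annotated symbol starts with Exosc, Rrp, Utp, Nop or Nol followed by a digit, or with Polr1. This gave 111 of 45101 probe sets, for 52 of the 18194 genes with a single-symbol probe set. Of these, 96 probe sets and 51 genes were bright enough to be tested, with a mean log2 intensity over the 6 arrays of at least 4. The cells came from a Dicer-/- embryonic stem cell line, labelled 27H, which cannot release mature microRNAs from their precursors, and all samples share this deletion. In 3 samples the undifferentiated cells had been transfected with mimics of the mmu-miR-290 cluster (mimic samples), and in 3 with an siRNA against Renilla luciferase, which has no intended mouse target (control samples). All were harvested 24 h after transfection and each was read on 1 Affymetrix array. A single cell line stands behind all 6 samples, and whether the replicates were separate cultures is not stated, so p-values reflect the spread among these arrays, part or all of which may be technical.

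RNA polymerase I transcribes 1 long precursor of the ribosomal RNAs in the nucleolus. Small nucleolar RNPs modify this precursor, the small subunit processome (a large assembly that holds the U3 small nucleolar RNA and many Utp proteins) folds and cuts it, further factors build the large subunit, and the RNA exosome, a ring of subunits with a cap, trims and degrades RNA from its 3′ end. Fast-dividing embryonic stem cells make ribosomes at a high rate. MicroRNAs pair through bases 2 to 8, the seed, with sites in mRNAs and lower their targets, and the microRNAs of the miR-290 cluster are among the most abundant of mouse embryonic stem cells.

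Mature 3p strands of 6 microRNAs of the cluster are shown, with the seed in capitals, because they belong to the cluster that the mimics copy. They come from RefSeq on GRCm38.p6, all from the plus strand of chromosome 7, and the labels do not say which of them the mimics comprised. Among the 6 strands printed here, those of miR-291a, miR-294 and miR-295 share 1 seed. The 3p strand of miR-292a also belongs to the cluster and is not printed here.
mmu-miR-291a-3p (chr7:3218968-3218989): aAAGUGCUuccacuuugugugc
mmu-miR-294-3p (chr7:3220691-3220712): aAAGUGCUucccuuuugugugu
mmu-miR-295-3p (chr7:3220815-3220837): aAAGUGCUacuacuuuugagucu
mmu-miR-291b-3p (chr7:3219529-3219550): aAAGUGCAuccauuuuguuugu
mmu-miR-290a-3p (chr7:3218674-3218697): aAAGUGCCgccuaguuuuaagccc
mmu-miR-293-3p (chr7:3220390-3220411): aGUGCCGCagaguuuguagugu

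The arrays were alike in their general properties. The median intensity per array was 44.1 to 44.8 in the mimic samples and 41.7 to 44.9 in the control samples, and log2 values of tested probe sets had correlations of 0.963 to 0.969 between arrays of 1 group and of 0.959 to 0.964 between arrays of different groups. The embryonic stem cell genes Pou5f1, Nanog, Sox2, Zfp42 and Dppa5a had summed intensities of 85442 to 90662 in the mimic samples and 81165 to 88930 in the control samples, and 0 of the 5 passed the test (lowest adjusted p = 0.378 in limma, with 0 at an unadjusted p under 0.05). Of 6 genes of fibroblast feeder cells, summed at 236 to 296 in the mimic samples and 289 to 318 in the control samples, 2 were above the filter, Dcn and Thy1. Dcn, which encodes the matrix proteoglycan decorin, had 54.6, 36.5 and 42.7 in the mimic samples, against 100.6, 78.8 and 69.4 in the control samples, and the groups did not overlap. Its log2 fold change was −0.90 ± 0.21 SE (limma adjusted p = 0.105, unadjusted p = 0.00693), and that of Thy1 was 0.10, with overlapping groups. The collagen genes Col1a1, Col1a2 and Col3a1 and the fibroblast gene Postn were below the filter; the part of feeder cells in the results was not tested.

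Most of these genes had slightly higher intensities with the mimics than with the control siRNA, and few differed enough to pass a test gene by gene. With the brightest probe set standing for each gene, 47 of 51 had a log2 fold change (mimic minus control) above 0, whereas 48.0% of all 13815 tested genes did. The median over the 51 genes was 0.13 on the log2 scale, with a range of −0.57 to 0.55, and the median over all tested genes was −0.01. Both ends of this range, Exosc6 and Nol3, come from dim probe sets near the floor of the arrays. Of the 51 genes, 0 differed by 1.5-fold or more in either direction. The members were bright, with a median intensity of 2695 against 376 over all tested genes. Among the 4216 tested genes of comparable brightness (mean log2 at or above 10), the median was 0.02 and 53.4% were above 0. Of the 43 members of that brightness, 41 were above 0, the median was 0.13 and the range was −0.04 to 0.53. These counts describe the members, and their difference from other genes was not tested. The naming rule was chosen with earlier results of these data known.

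The median of the members was higher on each mimic array than on any control array. Taking for each gene the log2 intensity minus its mean over the control samples, the median over the 51 genes was 0.11, 0.16 and 0.15 on the mimic arrays, against −0.03, 0.03 and −0.0097 on the control arrays. The 4216 bright genes as a whole gave 0.03, 0.02 and 0.0085 on the mimic arrays, against −0.01, 0.02 and −0.0025 on the control arrays, so that these ranges overlapped. Among the families, the Rrp genes gave 0.25, 0.27 and 0.26 on the mimic arrays against −0.0008, 0.05 and −0.06 on the control arrays. The Nol genes were the family whose arrays overlapped, with 0.05, 0.13 and 0.13 in the mimic samples against −0.07, −0.07 and 0.09 in the control samples.

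**Figure D1:**
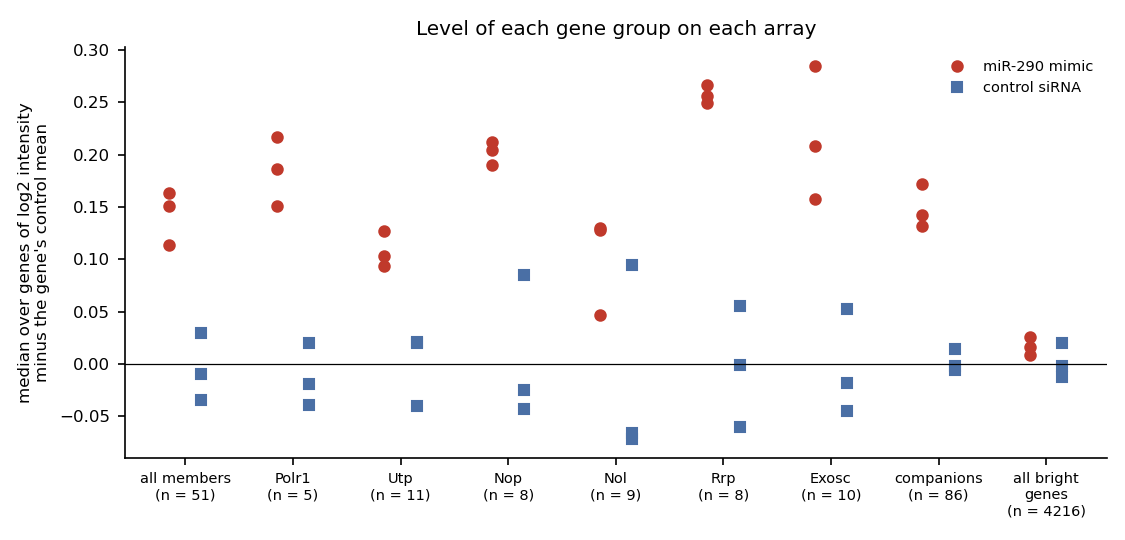
Level of each gene group on each array, as the median over its genes of the log2 intensity minus the gene's mean over the control samples; circles are the 3 mimic arrays, squares the 3 control arrays, and n is the number of genes. The mimic arrays lie above the control arrays in the 51 members, in every family except Nol, and in the companion genes, but not in all genes with a mean log2 of at least 10.

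Single genes were tested with limma across all 29167 probe sets, with Benjamini-Hochberg adjustment over all of them and a threshold of 0.05. With a constant prior variance, the fit used throughout unless another is named, 1 of the 51 genes passed, Utp14a, which was higher. At an unadjusted p under 0.05 in limma, 17 of the 51 passed, 16 of them higher, as did 24.5% of all tested genes in either direction. Of all 13815 tested genes, 1380 were higher at that level. Of the 4216 bright genes 1140 passed it, 536 of them higher, and of the 43 members of that brightness 15, all higher. By the adjusted threshold with the constant prior, 0.456% of all tested genes were called higher and 1.38% lower, and of all tested probe sets 0.343% and 0.946%. A second setting of limma, in which the prior variance follows the signal level and outlying variances are handled robustly (called the level-dependent robust prior here), called 16 of the 51 genes higher and 1 lower. By that rule 6.2% of all tested genes were called higher and 9.43% lower, and of the bright genes 12.3% were higher and 13% lower. The values of 25 of the 51 genes in the mimic samples lay above all control values, and those of 1 gene lay below them. Over all tested genes, 16.2% had groups that did not overlap with the mimic samples higher and 19.3% with the mimic samples lower; over the bright genes these shares were 26.5% and 22.7%. With 1 array left out, the constant prior called 0 of the members whichever array it was, with 11 to 17 of 51 at an unadjusted p under 0.05 in limma, beside 18.7% to 20.8% of all tested genes. The level-dependent robust prior then called 7 higher without mimic replicate 1, 9 without mimic replicate 2, 10 without mimic replicate 3, 9 without control replicate 1, 16 without control replicate 2 and 10 without control replicate 3. By probe set, the members called higher were 12, 13, 14, 14, 22 and 14 of 96 in the same order. Of all 29167 probe sets, 730, 854, 938, 932, 1244 and 785 were then called higher, against 1379 on 6 arrays.

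**Figure D2:**
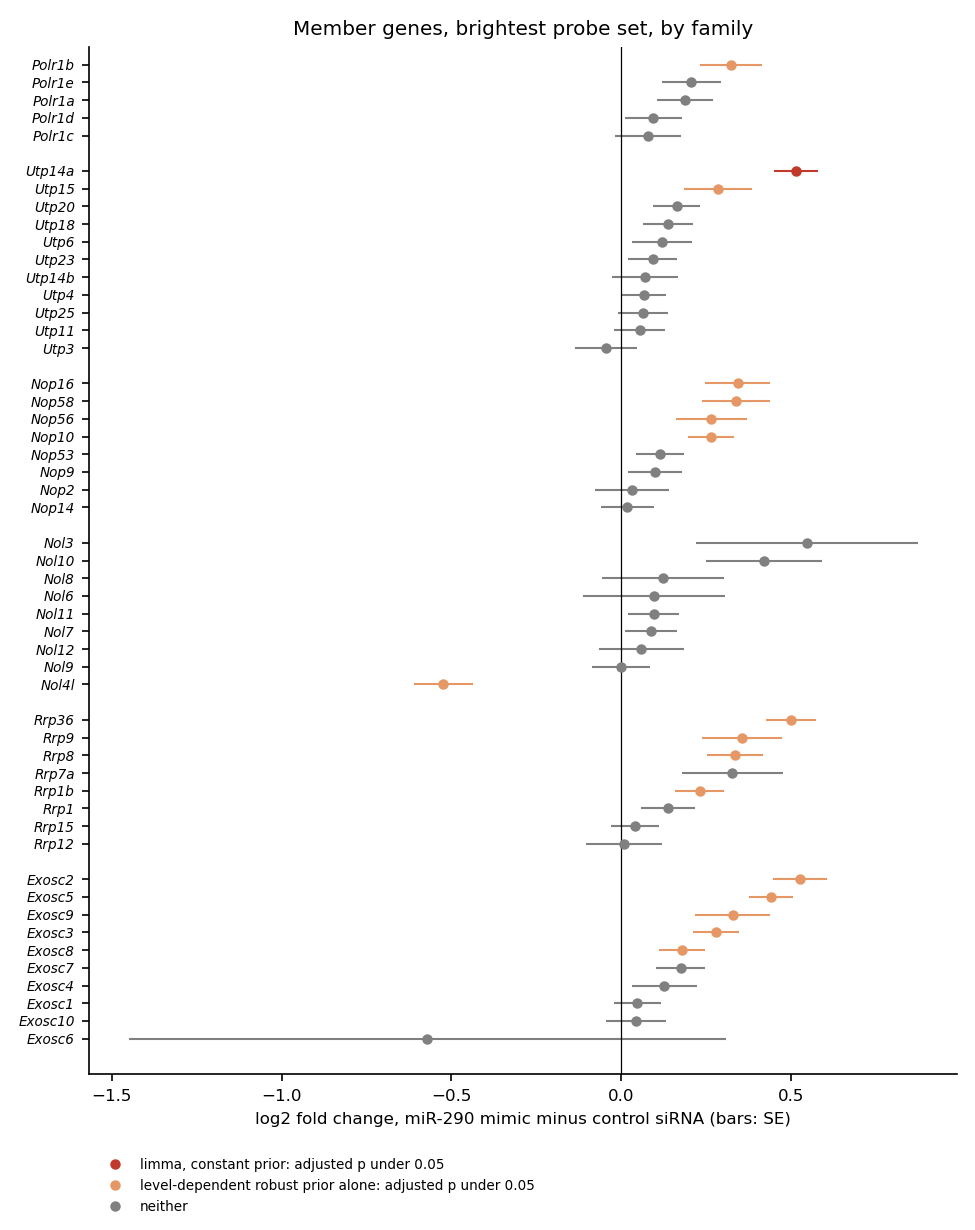
Log2 fold change (mimic minus control) of the 51 tested genes by family, each from its brightest probe set, with bars of 1 SE from limma with a constant prior; n = 3 arrays a group. Most points lie right of 0, Utp14a passes the constant prior, and the wide bars of Exosc6 and Nol3 belong to dim probe sets.

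Of the RNA polymerase I subunits, all 5 had log2 fold changes above 0, 0 passed limma with the constant prior (1 at an unadjusted p under 0.05) and 1 passed the level-dependent robust prior. Polr1b encodes the second-largest subunit, which forms the active site together with the largest one. Its intensities were 2017, 1867 and 1939 in the mimic samples, against 1511, 1699.8 and 1446 in the control samples, and the groups did not overlap. The log2 fold change was 0.33 ± 0.092 SE (limma adjusted p = 0.144, and 0.0149 with the level-dependent robust prior). Polr1e, a subunit particular to this polymerase, had 1231, 1288 and 1323 in the mimic samples, against 1202, 1036 and 1094 in the control samples, a log2 fold change of 0.21 without passing either setting. Its probe set carries a suffix (_x_at) that marks probes shared with other sequences, but a second Polr1e probe set without it gave 0.18. The gene of the largest subunit, Polr1a, had a log2 fold change of 0.19 on its brightest probe set and groups that did not overlap.

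Polr1c and Polr1d encode the pair of subunits that RNA polymerase I shares with RNA polymerase III, and they were the brightest of the family. Polr1c had 7488, 7819 and 7171 in the mimic samples, against 6910.0, 7868 and 6548 in the control samples, and Polr1d had 9130.1, 9403 and 10180.1 in the mimic samples, against 8831, 8551 and 9491 in the control samples. On these probe sets the groups of both genes overlapped, with log2 fold changes of 0.08 and 0.10. Both probe sets carry a suffix for shared probes (_s_at for Polr1c and _x_at for Polr1d). A Polr1c probe set without such a suffix gave 0.11, with groups that did not overlap. Another Polr1d probe set of similar brightness, also without such a suffix, gave 0.25 with groups that did not overlap. It passed the level-dependent robust prior (adjusted p = 0.00331). A dimmer one without a suffix gave 0.19 with overlapping groups. The 4 Polr1d probe sets, at 0.09 to 0.25, thus agreed in sign and not in the call.

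Among the 11 tested genes named Utp, whose products belong to the small subunit processome, 10 were above 0, with Utp3 at −0.04 as the exception. The constant prior called 1 of them higher and the level-dependent robust prior 2. Utp14a, whose yeast counterpart activates the helicase that releases the U3 RNA from the precursor, had 2039, 2057 and 2031 in the mimic samples, against 1388, 1449 and 1448 in the control samples. The narrow groups lay far apart. Its mean was 2042 ± 13.3 in the mimic samples and 1428 ± 34.7 in the control samples (SD, n = 3 each), a 1.43-fold difference, with a log2 fold change of 0.52 ± 0.065 SE (limma adjusted p = 0.0446, and 0.000323 with the level-dependent robust prior). The call rested on that 1 probe set (of 2), since a second, dimmer one gave −0.02, and the mean of both gave 0.25 (limma adjusted p = 0.144). It also ended with median centring of the arrays (limma adjusted p = 0.0542), with no filter on low values (0.174) and without any 1 array (0.135 to 0.153), while the log2 fold change then stayed between 0.50 and 0.56. Utp14b, a retrocopy of Utp14a on another chromosome that is known for its need in sperm formation in mice, could share probes with it. It was dimmer, at 394, 346 and 383 in the mimic samples, against 338, 344 and 389 in the control samples, with groups that overlapped.

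Utp15 and Utp4 encode members of the subcomplex that joins the nascent ribosomal RNA first. Utp15 had 1497, 1521 and 1421 in the mimic samples, against 1081, 1297 and 1274 in the control samples, without overlap, and a log2 fold change of 0.29 (limma adjusted p = 0.203, and 0.0429 with the level-dependent robust prior). Its other probe set, equally bright, gave 0.22 and passed the same setting. Utp4 was the brightest of the family, at 5935, 5687 and 5877 in the mimic samples, against 5517, 5563 and 5612 in the control samples. Its groups did not overlap either, although the log2 fold change was no more than 0.07 and passed neither setting. Utp11, next in brightness, had 4569, 4706 and 4647 in the mimic samples, against 4419, 4735 and 4257 in the control samples and overlapping groups. The other members of the family, Utp20, Utp18, Utp6, Utp23, Utp25 and Utp3, had log2 fold changes of −0.04 to 0.16, and none of them passed either setting.

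All 8 genes named Nop were above 0, and 4 of them passed the level-dependent robust prior. Nop56 and Nop58 encode the paired core proteins of the box C/D small nucleolar RNPs, which guide methylation of ribosomal RNA. Nop58 had 7642, 7972 and 7768 in the mimic samples, against 6202, 6843 and 5514 in the control samples, and Nop56 had 10955, 10969.9 and 10594 in the mimic samples, against 8522, 10263 and 8366 in the control samples. In both the mimic values lay close together above a wider control group, in which replicate 2 was the highest. The log2 fold changes were 0.34 ± 0.10 SE for Nop58 (limma adjusted p = 0.159, 0.00886 with the level-dependent robust prior) and 0.27 ± 0.10 SE for Nop56 (limma adjusted p = 0.245 and 0.0294 in the same order). The brightest Nop56 probe set carries a suffix (_s_at) for probes shared between transcripts, and the other one gave 0.36.

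Nop10, a small core protein of the box H/ACA small nucleolar RNPs that guide pseudouridylation, was the brightest of all members. Its intensities were 18626, 17718 and 17504 in the mimic samples, against 14617, 15179 and 15021 in the control samples, without overlap. The log2 fold change was 0.26 ± 0.069 SE (limma adjusted p = 0.125, and 0.0023 with the level-dependent robust prior), and a second probe set gave 0.30 and passed the same setting. Nop16, a factor of large subunit assembly, had 4333, 3807 and 3761 in the mimic samples, against 3132, 3322 and 2920.3 in the control samples and a log2 fold change of 0.34 (limma adjusted p = 0.144, and 0.00853 with the level-dependent robust prior). The other members of the family lay closer to 0 on their brightest probe sets: Nop53, a large subunit factor that recruits the exosome in yeast, at 0.11, Nop9 at 0.10, the methyltransferase gene Nop2 at 0.03 and the small subunit processome gene Nop14 at 0.02. None of the brightest probe sets of these 4 passed, while a dimmer Nop53 probe set, at 0.22, passed the level-dependent robust prior (adjusted p = 0.0447).

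The Nol family was the most mixed, and not all its members are ribosome factors. Of 9 tested genes 7 were above 0, and 1, Nol4l, was lower with the level-dependent robust prior. Nol4l, named for its likeness to Nol4 and not known as an assembly factor, had 383, 343 and 377 in the mimic samples, against 504, 517 and 564 in the control samples, without overlap. The log2 fold change was −0.52 ± 0.087 SE (limma adjusted p = 0.0634, and 0.00678 with the level-dependent robust prior), and a dimmer probe set gave −0.92 without passing. Nol3, which encodes an inhibitor of apoptosis, was dim, at 36.9, 74.3 and 54.7 in the mimic samples, against 29.0, 33.8 and 49.0 in the control samples. Its groups overlapped and its fold change is uncertain near the floor of the array. Nol4 was below the filter on all 3 of its probe sets. Leaving out Nol3 and Nol4l, 46 of 49 members were above 0, and the median stayed at 0.13.

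Among the Nol genes with a known part in ribosome assembly, none passed either setting on its brightest probe set. Nol7, the brightest, had 7448, 7700.0 and 7913 in the mimic samples, against 7198, 6882 and 7640.4 in the control samples, and Nol12, the homologue of a yeast exonuclease that trims ribosomal RNA, had 3484, 3722 and 3189 in the mimic samples, against 3319, 3767 and 2922 in the control samples. Both had overlapping groups, at log2 fold changes of 0.09 and 0.06. Dimmer Nol7 probe sets gave −0.12, with overlapping groups, and −0.43, with all mimic values below all control values, and neither passed. Nol10, the homologue of a yeast small subunit factor, had 563, 744 and 569 in the mimic samples, against 430.1, 418 and 552 in the control samples. There the groups did not overlap, and the log2 fold change of 0.42 ± 0.17 SE passed neither setting (limma adjusted p = 0.261, and 0.074 with the level-dependent robust prior, which it passed without control replicate 3, at 0.0381). For Nol9, a kinase that acts on ribosomal RNA ends, the brightest probe set gave −0.00073, while 1 of 3 dimmer ones gave 1.13 and passed the level-dependent robust prior (adjusted p = 0.024). The other members, Nol6, Nol8 and Nol11, lay between 0.10 and 0.12 on their brightest probe sets.

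All 8 genes named Rrp were above 0, and 4 passed the level-dependent robust prior. Rrp36, needed for the early cuts of the precursor, had 1619.7, 1545 and 1508 in the mimic samples, against 1139, 1107 and 1056 in the control samples. The groups lay apart, with means of 1558 ± 57.0 in the mimic samples and 1101 ± 41.7 in the control samples (SD, n = 3 each), a 1.41-fold difference. Its log2 fold change was 0.50 ± 0.073 SE (limma adjusted p = 0.0543, and 0.000861 with the level-dependent robust prior), and it passed the constant prior after quantile normalization (limma adjusted p = 0.0497). Rrp9, a protein of the U3 small nucleolar RNP, had 1982, 2116 and 1968 in the mimic samples, against 1746, 1661 and 1359 in the control samples and a log2 fold change of 0.36 (limma adjusted p = 0.188, and 0.0238 with the level-dependent robust prior).

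Rrp8 and Rrp1b completed the 4. Rrp8, a nucleolar methyltransferase, had 663, 668 and 705 in the mimic samples, against 500.1, 552 and 564 in the control samples, without overlap. The log2 fold change of 0.33 passed the level-dependent robust prior on 6 arrays (adjusted p = 0.0327) and lost that call whichever array was left out. Rrp1b, a nucleolar relative of Rrp1, had 3089, 3011 and 2998 in the mimic samples, against 2662, 2452 and 2638 in the control samples, with a log2 fold change of 0.23 (limma adjusted p = 0.167, and 0.0219 with the level-dependent robust prior). Its other probe sets gave 0.40, which passed the same setting, and 0.17, which did not. The brightest genes of the family differed less. Rrp15, a large subunit factor, had 6855, 6315 and 6433 in the mimic samples, against 6447, 6285 and 6302 in the control samples, and Rrp1 had 3752, 3621 and 3951 in the mimic samples, against 3369, 3638 and 3285 in the control samples. Both overlapped between the groups, as did Rrp12 (0.0081) and Rrp7a (0.33).

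The RNA exosome genes were above 0 in 9 of 10 cases, and 5 of the 10 passed the level-dependent robust prior. The cap of the exosome is made of the products of Exosc1, Exosc2 and Exosc3. Exosc2 had 2067, 2169 and 2008 in the mimic samples, against 1463, 1514 and 1359 in the control samples, and the groups were well apart. With means of 2081 ± 81.4 in the mimic samples and 1445 ± 78.8 in the control samples (SD, n = 3 each), its 1.44-fold difference just missed the threshold of the constant prior (a log2 fold change of 0.53 ± 0.08 SE, with an adjusted p of 0.0568 in limma, and of 0.000555 with the level-dependent robust prior). Exosc3 had 1317, 1326 and 1311 in the mimic samples, against 1039, 1109.7 and 1109 in the control samples, at a log2 fold change of 0.28 (limma adjusted p = 0.113, and 0.0204 with the level-dependent robust prior). The third cap gene, Exosc1, was the second-brightest of the family, at 4934, 4844 and 4957 in the mimic samples, against 4602, 4963 and 4689 in the control samples, with overlapping groups and a log2 fold change of 0.05.

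The ring of the exosome is built by the products of Exosc4 to Exosc9. Exosc5 had 3774, 3708 and 3619.9 in the mimic samples, against 2688, 2732 and 2754 in the control samples. The groups did not overlap. Its log2 fold change was 0.44 ± 0.065 SE (limma adjusted p = 0.0545, and 0.000345 with the level-dependent robust prior). Exosc9 had 2183, 2123 and 2172 in the mimic samples, against 1533, 1959 and 1693 in the control samples, and Exosc8, the brightest exosome gene, had 9259, 8868 and 9068 in the mimic samples, against 7754, 8178 and 8068 in the control samples. In Exosc9 the control values spread more widely than the mimic values, and its log2 fold change was 0.33 (limma adjusted p = 0.19, and 0.0251 with the level-dependent robust prior). The change of Exosc8 was smaller, at 0.18 (limma adjusted p = 0.23 and 0.0257 in the same order). A much dimmer Exosc8 probe set gave −0.27, with all mimic values below all control values, and passed neither setting. Exosc7 (0.18) had groups that did not overlap and passed neither setting.

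Exosc6 cannot be read from these arrays: its probe set lay near the floor, at 7.5, 76.6 and 40.1 in the mimic samples, against 34.9, 43.5 and 49.8 in the control samples, and its log2 fold change of −0.57 became 0.39 without mimic replicate 1. Exosc4 lay at 0.13 on its brightest probe set, with overlapping groups. The other 2 gave −0.09, with overlapping groups, and −0.24, with all mimic values below all control values. None of the Exosc4 probe sets passed either setting. The nuclear exonuclease gene Exosc10, whose product joins the ring in the nucleolus, was at 0.04, with overlapping groups.

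**Figure D3:**
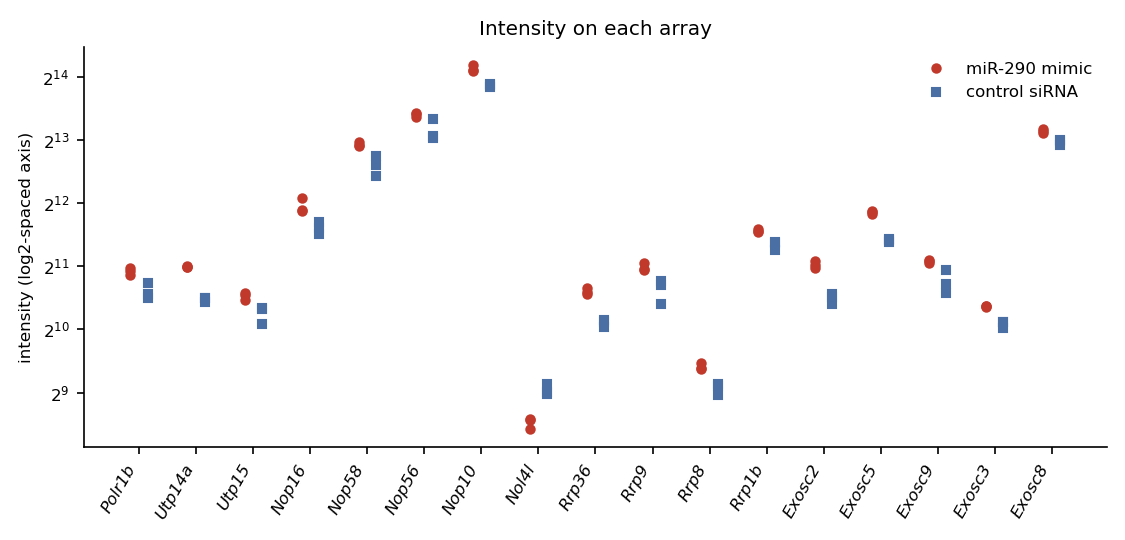
Intensity on each of the 6 arrays (axis spaced by log2) for the 17 members that passed the level-dependent robust prior on their brightest probe set, by family; circles are mimic samples, left, and squares control samples, right. The mimic values lie above the control values in 16 genes and below them in Nol4l.

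Bright and dim member probe sets differed in the spread of their changes and in the number of calls. Whether this depends on brightness was not tested. Of the 78 tested member probe sets with a mean log2 of at least 8, 66 were above 0. Of these 78, 22 passed the level-dependent robust prior as higher and 1 as lower. Over all tested probe sets, dim ones included, it called 4.73% higher and 6.56% lower. The share over all probe sets with a mean log2 of at least 8 was not computed. Over all genes with a mean log2 of at least 10, it called 12.3% higher and 13% lower. Of the 18 dimmer member probe sets 10 were above 0 and 1 passed, and their log2 fold changes ran from −0.92 to 1.13. Of the 27 genes with several tested probe sets, all probe sets had the same sign in 16. The 11 others were Exosc4, Exosc8, Exosc10, Nol7, Nol8, Nol9, Nol11, Polr1a, Utp6, Utp14a and Utp23. In Nop10, Nop56, Rrp1b and Utp15, 2 probe sets each passed the level-dependent robust prior in the same direction.

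**Figure D4:**
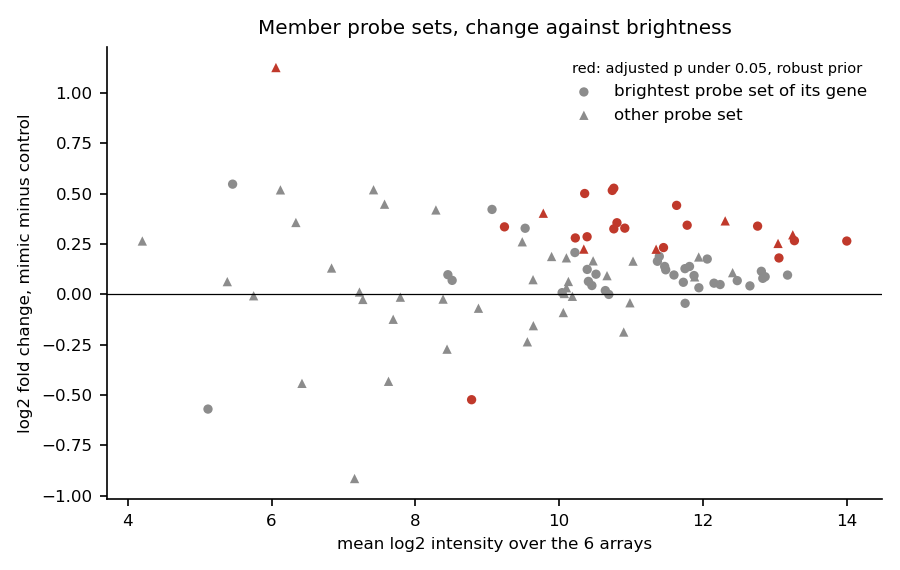
Log2 fold change (mimic minus control) against the mean log2 intensity over the 6 arrays for the 96 tested member probe sets; circles are the brightest probe set of each gene, triangles the others, and red marks an adjusted p under 0.05 with the level-dependent robust prior. Above a mean log2 of 8 most points lie above 0, and the 18 dimmer ones scatter from −0.92 to 1.13.

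A companion list held other genes of the same pathway that the naming rule does not take, in 5 roles. The list, too, was chosen with earlier results of these data known. Of its 88 genes, 1 was already a member, 1 lacked a single-symbol probe set, and the other 86 were tested. By the constant prior 0 of the 86 passed. At an unadjusted p under 0.05 in limma there were 26, of which 24 were higher, beside 24.5% of all tested genes in either direction. At that level 1380 of all 13815 tested genes were higher, and 536 of the 4216 bright genes. By the level-dependent robust prior 25 (29.1%) were higher and 1 (1.16%) lower. That setting called 6.2% of all tested genes higher and 9.43% lower, and of the bright genes 12.3% and 13%. The log2 fold change was above 0 for 74 of the 86, with a median of 0.14. By role, the counts above 0 were 22 of 24 for large subunit assembly, 28 of 30 for small subunit assembly, 7 of 7 for nucleolar and small nucleolar RNP proteins, 8 of 11 for RNA polymerase I and its factors, and 9 of 14 for exosome nucleases and cofactors. The medians of these roles, in that order, were 0.19, 0.16, 0.19, 0.10 and 0.04. On the arrays, the companion median was 0.14, 0.17 and 0.13 in the mimic samples, against −0.0022, 0.01 and −0.0063 in the control samples.

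For large subunit assembly, Nip7 had 9143, 8889 and 8802 in the mimic samples, against 6684, 6578 and 6301 in the control samples, and Gnl3, which encodes the stem cell nucleolar GTPase nucleostemin, had 7304, 6739 and 7213 in the mimic samples, against 5234, 5517 and 4860.0 in the control samples. Neither gene's groups overlapped, and both passed the level-dependent robust prior, at log2 fold changes of 0.46 and 0.45 (adjusted p = 0.000139 and 0.000684). Neither passed the constant prior (limma adjusted p = 0.055 and 0.074). Nolc1, a chaperone of small nucleolar RNPs in the nucleolus, had 2837, 3289 and 2672 in the mimic samples, against 2134, 2189 and 2064 in the control samples, a log2 fold change of 0.46 (limma adjusted p = 0.0964, and 0.0028 with the level-dependent robust prior). Dkc1, the pseudouridine synthase that works together with Nop10, had 6770.4, 6404 and 7060.3 in the mimic samples, against 5493, 5371 and 5319.7 in the control samples, a log2 fold change of 0.32 (limma adjusted p = 0.0994, and 0.00231 with the level-dependent robust prior). For Nop10 and Dkc1 alike, all mimic values lay above all control values.

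Among the small subunit factors, Nob1, the nuclease that makes the final cut of 18S RNA, differed by 0.39 and the processome gene Pwp2 by 0.36 on the log2 scale (limma adjusted p = 0.218 and 0.127, and 0.0334 and 0.0113 with the level-dependent robust prior). Of the genes around RNA polymerase I, Tcof1, which encodes the nucleolar protein treacle, differed by 0.38 and the polymerase subunit gene Znrd1 by 0.29 (limma adjusted p = 0.131 and 0.106, and 0.00826 and 0.00402 with the level-dependent robust prior). Among the exosome cofactors, Mphosph6 was higher by 0.20 (limma adjusted p = 0.247, and 0.0466 with the level-dependent robust prior). Tent4a, a non-canonical poly(A) polymerase, was the 1 companion called lower with the level-dependent robust prior, at 857, 881 and 861 in the mimic samples, against 1087, 1172 and 1238 in the control samples (log2 fold change −0.43, adjusted p = 0.0042). With the constant prior its limma adjusted p was 0.0725.

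Promoters of the members were searched for CACGTG, the E-box bound by dimers of Myc and Max and by related factors, which reads the same on both strands. Windows of 300 bases, 250 before and 50 after the annotated start, came from RefSeq on GRCm38.p6, and 42 of the 52 members matched, with 50 windows. The motif was present in 11 windows (22%), from 9 genes, and in 9.53% of the 14107 windows of genes tested on the array and 7.15% of all 32851 windows. More than 1 of the 11 windows belonged to Utp25. By gene, the motif was in 21.4% of matched members, 11.4% of genes tested on the array and 8.09% of all genes. The members' windows had a median GC content of 57.8% and those of all genes tested on the array 60.3%. The genes with the motif were Utp14b, Utp25, Nop2, Exosc5, Utp4, Utp20, Utp18, Nol11 and Rrp7a. Of the 15 matched genes that were higher with the level-dependent robust prior, 1 held it, Exosc5. The 120 bases before the Exosc5 start, on the plus strand, are shown because this was the 1 such gene, with the motif in capitals from 44 bases before the start.
Exosc5 (chr7:25659033-25659152): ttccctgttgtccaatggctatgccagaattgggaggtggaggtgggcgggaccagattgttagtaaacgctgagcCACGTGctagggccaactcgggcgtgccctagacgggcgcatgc
The Utp14a window held no CACGTG. A match describes the letters of the window and shows no binding.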

How the data were processed

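Total RNA of 6 samples was turned into biotinylated cRNA and read on Affymetrix arrays, per the labels' protocols. The deposited table holds a linear intensity for each probe set on each array. The submitters' processing notes name GCRMA, but the deposited intensities run from 0.057 to 46765 and average 500 on each array once 2% is trimmed from either end, so how the authors made them is not settled; detection calls were not analysed here. The intensities were log2-transformed with no offset and not normalized again. Control probe sets (64) and 15870 probe sets with a mean log2 under 4 were left out. The remaining 29167 were fitted with limma 3.58.1 in R 4.3.3 (lmFit, eBayes with a constant prior, two-sided), without covariates, and adjusted by the Benjamini-Hochberg method. Genes were named from the platform annotation; all 52 members matched GRCm38.p6 by gene identifier. The brightest tested probe set stood for a gene. Alternatives were the level-dependent robust prior, median centring, quantile normalization, other filters, an offset of 16, averaging of a gene's probe sets, the replicate number as a block, and leaving out each array. Same-numbered samples deviated from their group means with correlations of −0.12, 0.21 and 0.23, and differently numbered ones with −0.31 to 0.12. The labels state no pairing, so the numbers were not taken to pair the samples. Whether some of them were paired is not settled. The fits were also run on simulated data with known changes of 1.5-fold or more, larger than any member gene showed on its brightest probe set. The simulation therefore does not say how well changes of the members' size are recovered. The number of arrays limits the precision. Members and lists were chosen with earlier results of these data known. Each member may be named; values on every array are given for members past either limma setting and, in each family, for the 2 brightest and the 2 with the largest change, and for Nol10 and Utp14b, chosen after their values were seen; of the companions, for each role the 2 with the largest change past the level-dependent robust prior.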

Additional observations from a re-analysis of the deposited data

How the results depend on the processing

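The direction of the members' median did not depend on the settings tried, whereas the number of calls did. The median log2 fold change of the member genes was 0.13; it was 0.17 with median centring (all genes then 0.03), 0.16 when a gene's probe sets were averaged, and 0.12 to 0.17 without 1 array. Member genes called higher and lower numbered 1 and 0; these were 16 and 1 with the level-dependent robust prior, 0 and 0 with median centring, 2 and 0 with quantile normalization, 0 and 0 with no filter, 7 and 1 with the filter raised to 6, 4 and 0 with the offset of 16, and 3 and 0 when probe sets were averaged. By probe set the members gave 1 and 0; these were 23 and 1, 0 and 0, 2 and 0, 0 and 0, 13 and 1, and 4 and 0 in the same order up to the offset. Companion genes gave 0 and 0; these were 25 and 1 with the level-dependent robust prior, 10 and 1 with the filter at 6, and 1 and 0 with the offset. All tested probe sets gave 100 higher and 276 lower; these were 1379 and 1914 with the level-dependent robust prior, 50 and 103 with median centring, 0 and 0 with no filter, 851 and 1522 with the filter at 6, and 186 and 442 with the offset. The filter at 6 tests fewer probe sets and no filter tests more. Both also change the prior variance, which is estimated from the tested probe sets. For none of the settings was the cause of the change in calls tested.

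Without 1 array, the constant prior called 0 to 1 probe sets higher and 0 lower, 0 members and 0 companions. The level-dependent robust prior then called 730 to 1244 probe sets higher and 1186 to 1600 lower, 12 to 22 member probe sets higher and 1 lower, 7 to 16 member genes higher and 1 lower, and 12 to 21 companions higher and 1 lower. Of the 17 members it called on 6 arrays, 8 passed whichever array was left out: Exosc2, Exosc5, Nol4l, Nop10, Nop16, Nop58, Rrp36 and Utp14a.

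With the replicate block, limma called 0 probe sets in either direction, 0 member genes, 0 member probe sets and 0 companions, and the Utp14a adjusted p was 0.208. With the block and the level-dependent robust prior it called 1528 probe sets higher and 2030 lower, 24 member probe sets higher and 1 lower, 17 member genes higher and 1 lower, and 28 companions higher and 1 lower. The labels name nothing that same-numbered samples share except the number.

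Among the members given with values on every array, Exosc6 turned to 0.39 without mimic replicate 1, Nol12 to −0.032 without control replicate 3, Exosc8 to −0.046 and Nol7 to −0.16 when probe sets were averaged, and Rrp15 to −8.7e-05 with quantile normalization; none of these passed the constant prior in either direction. Over all single omissions Exosc6 lay between −1.28 and 0.39 and Nol12 between −0.032 and 0.15. Values near the floor of the arrays cannot be told from background, which limits Exosc6, Nol3 and Nol4.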
